A study of Mus musculus with 12 samples.

Results

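The contrast described here is the response of mouse embryonic stem cells to loss of p400 set against their response to loss of Tip60. For each array probe, the Tip60 over EGFP log2 difference was subtracted from the p400 over EGFP log2 ratio, and a positive value therefore means that the transcript stood higher after p400 knockdown than after Tip60 knockdown, each relative to its own control. Probes were kept where they stood well above background on all 4 single-colour arrays of control cells, which held for 23413 of 41174 probes (56.9%), and 23412 of them gave a difference. They carry 15700 of the array's 27670 gene names, and each gene was read from its brightest member probe, which left 15699 genes with a difference. The rule used the single-colour control arrays alone and no knockdown value. The same arrays are the reference of the Tip60 effect but not of the p400 effect, so membership is not independent of the contrast. Of the probes that passed on 3 of the 4 control arrays and so fell just outside, there were 1249, with a median EGFP level of -5.13 (log2, with the 75th percentile of the array's signals set to 0) and a median difference of -0.23. The dimmest member stood at -5.41, and the median member at -0.51.

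All cells were E14, a mouse embryonic stem cell line, and each sample was 1 well of a 6-well dish treated for 72 hr with esiRNA at 0.33 ng/µl and Lipofectamine 2000. An esiRNA is made by digesting a long double-stranded RNA with an endoribonuclease, which yields many different siRNAs against 1 transcript. The p400 group received esiRNA against p400 (gene Ep400), the Tip60 group esiRNA against Tip60 (gene Kat5), and the control group esiRNA against EGFP, a reporter. The p400 knockdown was read on 4 two-colour arrays, each holding p400 and EGFP RNA in different dyes, with p400 RNA in Cy5 in replicates 1 and 3 and in Cy3 in replicates 2 and 4. The Tip60 knockdown and 4 further EGFP samples were read on single-colour arrays of the same design. The series describes the replicates as biological, and the submitters' exclusion of Tip60 replicate 3 was followed here. The labels do not say whether the EGFP RNA of the 2 experiments came from the same wells. Knockdown, array format and slide 1, which held every p400 array, cannot be told apart in this contrast.

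Tip60-p400 is a large nuclear complex that joins both activities named in it. Tip60 is a histone acetyltransferase that acts on histones H4 and H2A, and p400 is an ATP-dependent remodeller of the SWI2/SNF2 family that exchanges the histone variant H2A.Z into nucleosomes. In embryonic stem cells the complex is known to repress many developmental genes while it sits at active promoters, and p400 also acts in assemblies that lack Tip60. A direct comparison of both depletions asks which transcripts respond to the remodelling subunit and to the acetyltransferase alike, and which do not.

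Of 43379 spots per array other than controls, 25073 to 30107 stood well above background on the single-colour arrays used. On the excluded Tip60 replicate 3 the number was 22188. The p400 arrays correlated with one another over member probes with r from 0.652 to 0.845, the 3 Tip60 arrays with r from 0.66 to 0.809, and p400 with Tip60 arrays with r from 0.529 to 0.712. All 10 embryonic stem cell markers were members. Of 10 feeder fibroblast markers 6 were members, Dcn, Lum and Postn were dim on every EGFP array, and the summed linear level of the list ran from 4.45 to 4.64 on EGFP arrays and from 6.44 to 6.66 on Tip60 arrays. Of the feeder markers with a test, 5 of 7 were higher after p400 and 4 of 7 after Tip60 knockdown, where 20.9% and 14% of all member genes were. Other marker lists rose too: of 7 primitive endoderm markers with a test, 5 were higher after p400 and 6 after Tip60 knockdown. Of 8 trophectoderm markers, 5 were higher and 1 lower after each knockdown. The part of feeder cells in the results was not tested. In bulk RNA, more cells of a type and more RNA per cell cannot be told apart.

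The targeted genes separated the knockdowns in opposite ways. The Ep400 probe (chromosome 5, 109831052 to 109831111, build mm7) gave p400 over EGFP log2 ratios of -0.65, -0.77, -0.24 and -0.67 on replicates 1 to 4, and stood at 0.11, 0.23 and 0.18 relative to the EGFP mean on Tip60 replicates 1, 2 and 4. All p400 values lay below all Tip60 values, and the difference was -0.75 ± 0.11 (SE; limma adjusted p = 0.00511). The other Ep400 probes gave -0.76 and -0.13. The Kat5 probe (chromosome 19, 5498325 to 5498465) stood at -1.42, -1.53 and -1.5 on the Tip60 arrays and at -0.28, -0.41, -0.27 and -0.76 on the p400 arrays, a difference of 1.06 ± 0.11 (limma adjusted p = 0.00169), or 0.86 (adjusted p = 0.0745) with the p400 arrays scaled to a common spread. Kat5 RNA was thus called lower after both knockdowns (-0.43 and -1.49), and Ep400 RNA after p400 knockdown alone. On these probes Ep400 fell 1.5-fold and Kat5 fell 2.80-fold in their own knockdowns, and the part of unequal depletion in the contrast was not tested.

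Transcripts called in both knockdowns mostly moved in the same sense. Across the 23412 member probes the p400 and Tip60 effects had a Pearson r of 0.723 and a Spearman rho of 0.599, given as a description, since probes are not independent replicates. Both effects were called at 3463 probes, and they shared their sign at 3384 of them. The p400 effects spread more widely, with an SD of 0.423 against 0.363 for Tip60. The median absolute difference was 0.17, with a median SE of 0.13, and 91.7% of member probes differed by less than 0.50.

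The difference itself passed a limma adjusted p of 0.05 at 1977 member probes (8.44%), of which 1169 (4.99%) were higher and 808 (3.45%) lower after p400 than after Tip60 knockdown. An unadjusted p under 0.05 was reached at 5874 (25.1%). Counted by gene, 1468 of 15699 were called (9.35%), 864 higher (5.5%) and 604 lower (3.85%), and 100 of the higher and 33 of the lower genes differed at least 2-fold (0.637% and 0.21% of all). The p400 and Tip60 arrays did not overlap in 3949 genes (25.3% of 15610 with a value on every array). The 15 largest differences each way named below were required not to overlap, so for them it adds no evidence. All Tip60 values are relative to 1 EGFP mean, so overlap leaves out the spread of the controls. Of the 864 higher genes, 501 were raised by p400 knockdown with no call for Tip60, 217 were raised by both, 97 were lowered by Tip60 alone and 42 moved in opposite directions. Of the 604 lower genes, 266 were lowered by p400 alone, 151 were raised by Tip60 alone, 92 were raised by both, 73 were lowered by both and 16 moved in opposite directions. The p400 effect was the larger in size in 740 of the 864 higher genes (85.6%) and in 348 of the 604 lower genes (57.6%).

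**Figure D1:**
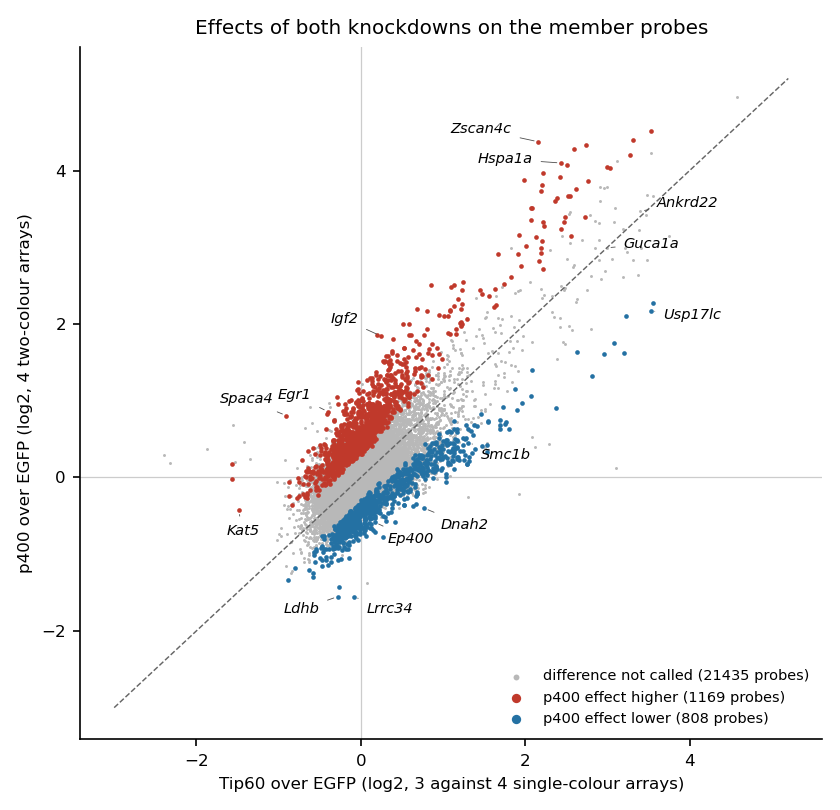
Each point is 1 member probe, with the Tip60 effect on the horizontal and the p400 effect on the vertical axis (both log2 over EGFP), and the dashed line marks equal effects. The cloud lies along that line, with 1169 probes called above it in red, 808 called below it in blue and 21435 not called in grey.

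These counts leaned on single arrays and on scaling. Without p400 replicate 2 the number of probes called was 627, without p400 replicates 3 and 4 it was 1202 and 924, and without Tip60 replicates 1 and 4 it was 1134 and 1206. The share of calls that were higher was 59.1%, against 76.1% without p400 replicate 4. It was 95% with the single-colour arrays set on their median, 10.7% with the p400 arrays centred on their median without loess, 41.8% with the deposited LogRatio of the p400 arrays, 71.1% with normexp background correction in both experiments, 72.3% with quantile normalisation and 74.3% with the deposited series matrix. The median difference of all member genes, -0.0045 as reported, moved to 0.21 and -0.21 under the first and second of these, and the ranges of list medians over settings are given below relative to that shift, while the medians themselves are as measured. With the p400 arrays scaled to a common spread, 77 of the 146 named genes called in the difference lost their call.

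Dim probes leaned toward lower values. Among the dimmest of 5 equal groups of members by EGFP level the median difference was -0.12, with 37 probes called higher and 232 lower, and in the brightest it was 0.04, with 313 higher and 108 lower. With normexp (offset 50) applied to the single-colour arrays as well as to the p400 arrays, the dimmest group had a median of -0.0071 with 62 higher and 49 lower calls. With the deposited LogRatio it was -0.26, with 245 higher and 695 lower. Of the 864 higher and 604 lower genes, 695 and 329 kept the same call in all 3 treatments of background. Genes that kept it are called robust to background in what follows.

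**Figure D2:**
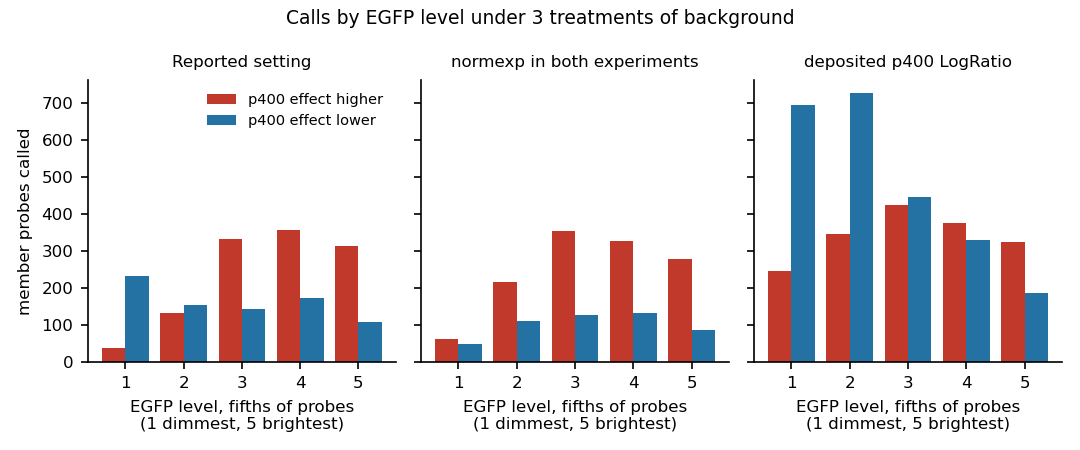
Bars count member probes called higher (red) or lower (blue) after p400 than after Tip60 knockdown, in 5 groups of EGFP level from dimmest to brightest, under 3 treatments of background. The excess of lower calls in group 1 as reported (232 against 37) was absent with normexp in both experiments (49 against 62) and larger with the deposited LogRatio (695 against 245).

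Genes of the 2-cell embryo, which a small share of embryonic stem cells transcribes at any time, rose after both knockdowns in 10 of 11 cases, and 6 of the 11 stood higher after p400 than after Tip60. Of these member genes, all 11 were called higher after p400 and 10 after Tip60 knockdown (20.9% and 14% of all member genes were), and the difference was called higher in 6 and lower in 1 (54.5% and 9.09%, against 5.5% and 3.85% of all member genes). Some of this list's genes had been chosen with results of these data known, so the count is no independent support. Zscan4c, which marks the 2-cell-like state, gave p400 ratios of 3.40, 4.78, 5.24 and 4.08 and Tip60 values of 2.08, 2.14 and 2.26. Every p400 array lay above every Tip60 array, and the difference was 2.22 ± 0.32 (4.65-fold, limma adjusted p = 0.00501). Gm5662 differed by 1.89 ± 0.19, Tcstv3 by 1.69 ± 0.26, Tcstv1 by 1.15, Zfp352 by 0.99 and Usp17la by 0.93. These genes belong to families of near-identical copies that the probes may not separate, and a second Tcstv3 probe gave 0.12. Usp17lc went the other way (-1.35 ± 0.28), though its probe is dim (EGFP level -4.87) and it stood at 0.28 with the deposited series matrix. The list's median difference was 0.93, from 0.41 to 1.4 above that of all member genes over the settings tried. The calls were fewer under some of them. With the p400 arrays scaled to a common spread none was called higher (2.74 for Zscan4c, limma adjusted p = 0.101), and without p400 replicates 2 or 3 the number was 4.

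Hspa1a, the inducible Hsp70 chaperone, was among the largest differences. Its probe (chromosome 17, 33066911 to 33066970, mm7) gave p400 ratios of 4.29, 4.09, 4.44 and 3.57 and Tip60 values of 2.32, 2.41 and 2.57, against a spread of -0.10 to 0.07 among EGFP arrays. Both knockdowns raised it on every array, 17.1-fold and 5.41-fold, and the p400 values lay wholly above the Tip60 values (difference 1.66 ± 0.13, limma adjusted p = 0.000535). With the p400 arrays scaled to a common spread the difference was 2.05 and was not called (adjusted p = 0.144). Of 36 heat shock and chaperone genes, 6 were called higher (16.7%, against 5.5% of all member genes) and 1 lower (2.78%, against 3.85%), with a median of 0.07. Dnajb9, a chaperone of the endoplasmic reticulum, differed by 0.83 ± 0.19 and Dnajb6, a partner of Hsp70, by 0.82 ± 0.15, with other probes of these genes at 0.26 and 0.01. The small heat shock protein Hspb1 differed by 0.67, the co-chaperone Bag3 by 0.50 and Hsph1 by 0.49, all 3 named after their values were seen, while the small heat shock protein Hspb8 was lower (-0.54 ± 0.12). Without p400 replicate 2, Dnajb9 (0.69), Dnajb6 (0.67) and Hspb8 (-0.41) lost their calls. Dnajb9 also lost its call without p400 replicate 3 (0.67), EGFP replicate 2 (0.80) or Tip60 replicate 2 (0.75), and Hspb8 without p400 replicate 3 (-0.53), EGFP replicate 1 (-0.52) or Tip60 replicates 1 (-0.51) or 4 (-0.55).

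The Hspa1a promoter is shown because this gene led the chaperones in the contrast, with the core of the heat shock element, GAANNTTC read on both strands, in capitals. The sequence is the 250 bases before the RefSeq transcript start, on the minus strand of build GRCm38.p6 (chr17:34972157-34972406).
Hspa1a: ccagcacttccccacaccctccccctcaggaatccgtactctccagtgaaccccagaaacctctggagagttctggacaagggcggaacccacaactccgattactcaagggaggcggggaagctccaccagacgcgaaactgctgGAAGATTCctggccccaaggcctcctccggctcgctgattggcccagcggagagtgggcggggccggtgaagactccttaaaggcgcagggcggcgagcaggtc
The match starts 104 bases before the transcript start. Among the promoters of the 6 chaperone genes called higher, of which some have several starts, 4 of 8 held the core (50%), against 9 of 36 promoters of the list's member genes (25%, with 9 genes missing from the table and some with several starts) and 2199 of all 32851 RefSeq promoters of this length (6.69%). The windows of the Dnajb6 starts overlap and hold the same match, which is counted for each. Dnajb9, Bag3 and Hsph1 held no match in this window. A match describes the letters alone.

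The Id genes, targets of BMP signalling, stood higher after p400 than after Tip60 knockdown. Id1, an inhibitor of DNA binding and a direct target of BMP signals, gave p400 ratios of 1.86, 1.65, 1.35 and 1.64 and Tip60 values of 0.26, 0.40 and 0.48. The arrays did not overlap, and the difference was 1.24 ± 0.13 (limma adjusted p = 0.00152). Id3 differed by 1.1 ± 0.12, with both knockdowns above EGFP (2.11 and 1.01), and Id2 by 0.72 ± 0.13. With the p400 arrays scaled to a common spread, Id1 (1.48, adjusted p = 0.0614) and Id3 (1.33, adjusted p = 0.125) lost their calls. Of 27 genes of the Nodal, BMP and Wnt list, limma called 6 higher (22.2%, against 5.5% of all member genes) and none lower (against 3.85%). At an unadjusted p under 0.05 the counts were 7 and 6. The list median of 0.07 was close to that of all member genes, and relative to it changed sign in 1 of 34 settings.

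In the FGF-ERK list, which holds the pathway that drives stem cells out of self-renewal and its early targets, 6 of 36 genes were called higher (16.7%, against 5.5% of all member genes) and 2 lower (5.56%, against 3.85%), with a median of 0.15. Myc, a transcription factor of growth, stood at 1.07, 1.52, 1.75 and 1.73 after p400 and at 0.37, 0.13 and 0.38 after Tip60 knockdown, a difference of 1.23 ± 0.16 (limma adjusted p = 0.00351), with other Myc probes at 0.41 and 1.08. Egr1, an immediate early gene induced by ERK, differed by 1.26 and is described with the opposite calls. Spry2, a feedback inhibitor of the pathway, differed by 0.74 ± 0.10. With the p400 arrays scaled to a common spread, Myc (1.53, adjusted p = 0.0809), Spry2 (0.88, adjusted p = 0.063) and Ier3 (-0.87, adjusted p = 0.0632) lost their calls. Ier3, another early response gene, was lower (-0.73 ± 0.15), and lost its call without p400 replicates 2 (-0.69) or 4 (-0.77).

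Imprinted, germ line and lineage genes held several of the clearest positive differences. Igf2, the imprinted fetal growth factor (chromosome 7, 139078075 to 139078135, mm7), gave p400 ratios of 1.83, 2.0, 1.90 and 1.65 and Tip60 values of 0.16, 0.32 and 0.25. The p400 arrays lay close together and far above the others, with a difference of 1.60 ± 0.10 (limma adjusted p = 0.000535), and a second Igf2 probe gave 1.24. Cdkn1c, an imprinted inhibitor of the cell cycle, differed by 1.24 ± 0.09 and Dlk1, an imprinted membrane protein, by 0.93 ± 0.15. Of 31 imprinted genes, 5 were called higher (16.1%, against 5.5% of all member genes) and 1 lower (3.23%, against 3.85%), with a median of 0.15.

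Stra8, which is needed at the entry into meiosis, stood at 1.33, 1.56, 1.32 and 1.28 after p400 and at 0.12, 0.21 and 0.22 after Tip60 knockdown (difference 1.19 ± 0.10, limma adjusted p = 0.000535). Tex19.1, which is expressed in germ and pluripotent cells and restrains transposons, differed by 1.0 ± 0.12. Dazl, an RNA-binding protein of germ cells, was raised by both knockdowns (2.07 and 1.30) and differed by 0.77 ± 0.12, a call lost with the p400 arrays scaled to a common spread (0.89, adjusted p = 0.163). The germ line did not move as one: of 33 genes, 5 were called higher (15.2%) and 4 lower (12.1%), with a median of 0.11. Of all member genes, 5.5% and 3.85% were. Smc1b, a meiotic cohesin, stood at 0.29, 0.69, 0.24 and 0.60 after p400 and higher, at 1.28, 1.26 and 1.38, after Tip60 knockdown (-0.85 ± 0.09). Sycp3, of the synaptonemal complex, fell after both and further after p400 (-1.16 against -0.47, difference -0.69 ± 0.13), a call lost without p400 replicate 2 (-0.65).

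Among neural and epiblast genes, limma called 5 of 19 higher (26.3%, against 5.5% of all member genes) and none lower (against 3.85%). At an unadjusted p under 0.05 the counts were 7 and 1. Pou3f1, a POU factor of the epiblast and neural lineage, gave p400 ratios of 1.02, 1.48, 1.62 and 0.87 and Tip60 values of -0.26, 0.13 and 0.04 (difference 1.28 ± 0.19, limma adjusted p = 0.00511). Of 15 endoderm genes, limma called 5 higher (33.3%, against 5.5% of all member genes) and none lower (against 3.85%). At an unadjusted p under 0.05 the counts were 6 and 1. The list's median difference was 0.28, from 0.22 to 0.38 above that of all member genes over the settings tried. Gata6, a transcription factor of primitive endoderm, differed by 0.84 ± 0.12, Cubn, a receptor of visceral endoderm, by 1.01 ± 0.22, and Col4a1, a collagen of basement membranes, by 0.70 ± 0.15. Cubn lost its call without p400 replicates 1 (0.93) or 2 (0.75), and Col4a1 without replicates 2 (0.58) or 3 (0.57). Krt18, a keratin of simple epithelia and trophectoderm, stood at 0.87, 1.05, 0.85 and 0.82 after p400 and at 0.04, 0.15 and 0.08 after Tip60 knockdown (difference 0.81 ± 0.11). None of 9 Hox genes was called in the difference by limma (an unadjusted p under 0.05 was reached by 0 higher and 1 lower).

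The core pluripotency factors were not called in the difference as reported. Pou5f1 (Oct4) differed by -0.02 (95% confidence interval -0.35 to 0.32), Sox2 by -0.00078 (-0.17 to 0.17), Nanog by 0.11 (-0.25 to 0.47) and Zfp42 (Rex1) by 0.25 (-0.07 to 0.57). Klf4, a factor of naive pluripotency, was called lower after Tip60 knockdown (-0.48) and not after p400 (-0.12), but the difference of 0.36 (0.13 to 0.60) missed the threshold (limma adjusted p = 0.0605). Klf4 was called in some other settings, among them the series matrix (0.36, limma adjusted p = 0.0458) and Tip60 replicate 3 included (0.37, limma adjusted p = 0.0412). Sox2 was called at -0.33 with the p400 arrays centred on their median without loess (limma adjusted p = 0.0162). Of 33 pluripotency genes, 4 were called higher (12.1%, against 5.5% of all member genes) and 1 lower (3.03%, against 3.85%).

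Several silencing factors were higher after p400 knockdown. Of 40 genes of Polycomb and DNA methylation silencing, limma called 7 higher (17.5%, against 5.5% of all member genes) and none lower (against 3.85%). At an unadjusted p under 0.05 the counts were 12 and 5. All 7 called genes were robust to background. The list median of 0.06 was nevertheless near that of all member genes, and relative to it changed sign in 1 of 34 settings. Cbx1, a heterochromatin protein of the HP1 family, stood at 0.66, 0.74, 0.99 and 0.74 after p400 and at -0.06, 0.04 and -0.10 after Tip60 knockdown (difference 0.82 ± 0.10, limma adjusted p = 0.00276), with a second probe at 0.29. Phc1, a subunit of Polycomb repressive complex 1, differed by 0.81 ± 0.12. The de novo DNA methyltransferase Dnmt3a differed by 0.94 ± 0.22, but its other probes gave 0.65 and -0.32, and its call was lost without p400 replicates 2 (1.02), 3 (0.76) or 4 (0.86), EGFP replicate 2 (0.94) or Tip60 replicates 1 (0.89) or 4 (0.83).

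Histone genes gave 7 higher calls (31.8%, against 5.5% of all member genes) and 1 lower call (4.55%, against 3.85%) among 22, with a median of 0.22. The linker histone gene H1f1 differed by 1.23 ± 0.27, the H4 gene H4c1 by 1.15 ± 0.23 and H4f16, another H4 gene, by 1.08 ± 0.28. For H4f16 the p400 ratios were 1.81, 0.62, 1.89 and 0.54 and the Tip60 values -0.21, 0.57 and 0.04. The high p400 values were those of replicates 1 and 3, with p400 RNA in Cy5, and the lower ones overlapped the Tip60 arrays; H4c1 and H1f1 had the same order. H4 genes are near-identical in their coding sequence, so single copies are uncertain here. Calls were lost for H4c1 without p400 replicates 2 (1.15) or 4 (1.16), and for H1f1 without p400 replicates 2 (1.32), 3 (1.25) or 4 (1.14), EGFP replicate 2 (1.18) or Tip60 replicate 1 (1.19). H4f16 lost its call without any p400 array (1.06 to 1.1), EGFP replicates 1 (1.1) or 2 (1.09), or Tip60 replicates 1 (0.91) or 4 (1.04). H2bc21, a histone H2B gene whose RNA can be polyadenylated, went the other way, near EGFP after p400 (-0.16) and higher after Tip60 knockdown (0.59), a difference of -0.75 ± 0.11.

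**Figure D3:**
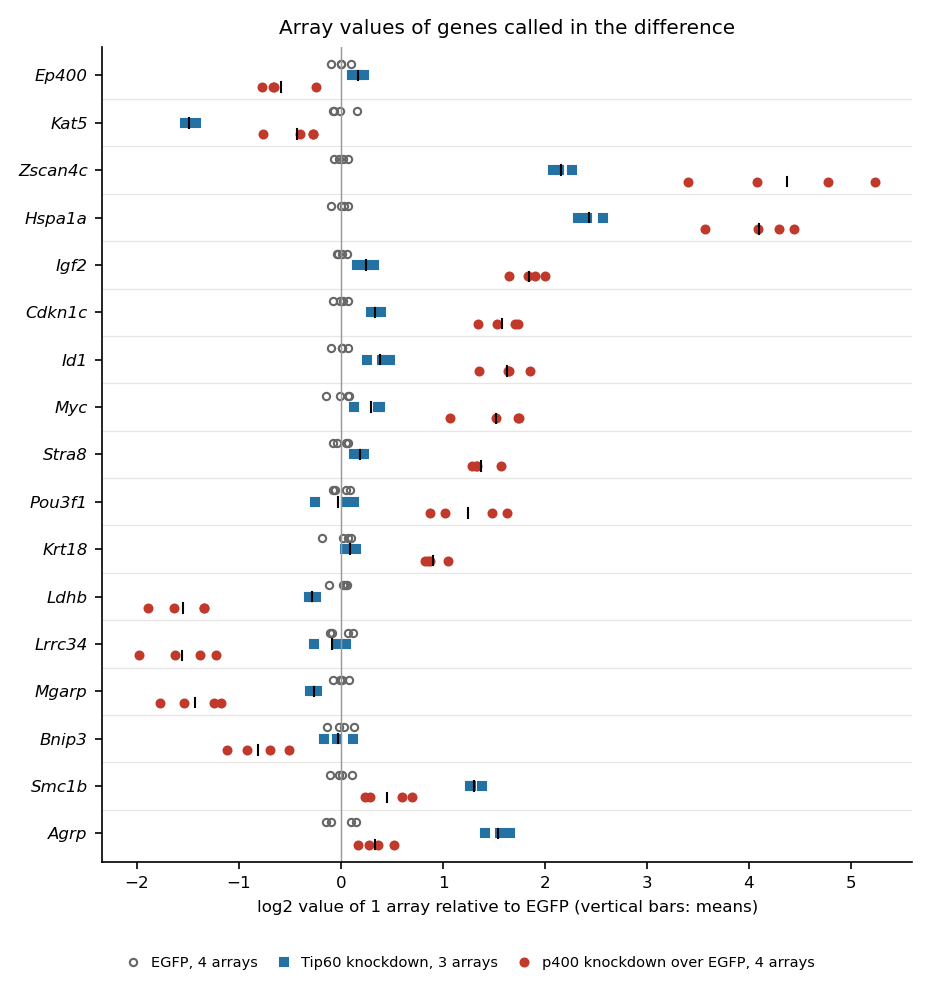
Each symbol is 1 array, as the log2 value relative to EGFP: open circles are the 4 EGFP arrays, squares the 3 Tip60 arrays and filled circles the 4 p400 arrays, with vertical bars at means. The p400 and Tip60 values do not overlap for any of the 17 genes, from Zscan4c (p400 from 3.40 to 5.24, Tip60 from 2.08 to 2.26) to Agrp (p400 from 0.17 to 0.52, Tip60 from 1.41 to 1.66). For genes named among the largest differences this was a condition of the choice.

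The other large positive differences, ranked over all member genes with a symbol, were in genes outside these lists. 3830417A13Rik, a gene of unassigned function, stood at 1.99, 1.98, 2.13 and 1.30 after p400 and at 0.16, 0.21 and 0.22 after Tip60 knockdown (1.66 ± 0.13), though a second probe gave 0.89. Rfxap, a regulator of MHC class II genes, differed by 1.65 ± 0.18, with a second probe at 0.05, 0610040J01Rik by 1.60 ± 0.19, Alyref2, an mRNA export adaptor, by 1.51 ± 0.20 (second probe 0.35) and Rgs2, a regulator of G protein signalling, by 1.48 ± 0.23. The zinc finger gene Zfp560 differed by 1.42 ± 0.18 (second probe -0.17), Nefl, the light neurofilament chain, by 1.42 ± 0.11 (second probe 0.60), and Cab39, a scaffold of the kinase LKB1, by 1.39 ± 0.24 (other probes 0.19 and 0.66), a call lost without p400 replicate 2 (1.24). Where a second probe stood far lower, the difference rests on 1 stretch of the transcript. With the p400 arrays scaled to a common spread, Rfxap, 0610040J01Rik, Alyref2, Zfp560 and Cab39 lost their calls (limma adjusted p from 0.0551 to 0.156).

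Glycolysis and hypoxia genes formed the clearest group on the lower side. Of 37 genes, limma called none higher and 10 lower (27%, against 3.85% of all member genes), 9 of them robust to background, and an unadjusted p under 0.05 was reached by 0 higher and 17 lower. The list's median difference was -0.22, and its median minus that of all member genes was negative in all 34 settings tried (-0.35 to -0.18). After p400 knockdown 17 genes of the list were called lower and 3 higher, after Tip60 knockdown 2 lower and 5 higher, where 17.9% and 10.8% of all member genes were called lower. Ldhb, the lactate dehydrogenase subunit that favours conversion of lactate to pyruvate (chromosome 6, 142578009 to 142578068, mm7), stood at -1.34, -1.89, -1.35 and -1.63 after p400 and at -0.25, -0.28 and -0.31 after Tip60 knockdown. The arrays were far apart, with a difference of -1.27 ± 0.09 (2.41-fold, limma adjusted p = 0.000535).

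Bnip3, a target of hypoxia signalling that acts in removal of mitochondria, stood at -1.12, -0.92, -0.69 and -0.51 after p400 and at -0.04, -0.16 and 0.12 after Tip60 knockdown (difference -0.78 ± 0.15, limma adjusted p = 0.0137). Aldoc, an aldolase, differed by -0.65 ± 0.13. Bnip3 and Aldoc lost their calls without p400 replicate 2 (-0.68 and -0.60). The other called members, named after their values were seen, were Ndrg1 (-0.62), Eno2 (-0.61), Pfkp (-0.60), Higd1a (-0.55), Pgk1 (-0.52), Egln3 (-0.49) and Tpi1 (-0.42). In Ndrg1 and Pfkp the difference came with higher RNA after Tip60 knockdown (0.44 and 0.52), and in Pgk1, Higd1a and Tpi1 with lower RNA after p400 (-0.60, -0.57 and -0.56). The number of genes called lower was 2 without p400 replicate 2, 5 without replicate 3, 6 without replicate 4 and 15 without replicate 1.

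The promoters of Ldhb and Bnip3 are shown as the genes with the largest differences of this list. Capitals mark ACGTG, a form of the core of the hypoxia response element, read on both strands. Each is the 250 bases before a RefSeq transcript start, on the minus strand of GRCm38.p6 (chr6:142507958-142508207 for Ldhb and chr7:138909507-138909756 for Bnip3).
Ldhb: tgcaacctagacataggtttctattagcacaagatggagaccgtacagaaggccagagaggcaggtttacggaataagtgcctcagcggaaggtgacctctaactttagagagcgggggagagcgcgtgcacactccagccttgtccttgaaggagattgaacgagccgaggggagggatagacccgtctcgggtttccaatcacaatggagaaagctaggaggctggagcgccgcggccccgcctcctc
Bnip3: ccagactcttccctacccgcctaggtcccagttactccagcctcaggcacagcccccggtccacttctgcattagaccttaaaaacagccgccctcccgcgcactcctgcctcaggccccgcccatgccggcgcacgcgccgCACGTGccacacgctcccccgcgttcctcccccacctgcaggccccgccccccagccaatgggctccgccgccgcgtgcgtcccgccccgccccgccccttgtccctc
The Ldhb promoter held no match to ACGTG in this window, and other forms of the core were not searched. In Bnip3 the 2 matches, 1 on each strand, overlap. Among the genes called lower, 3 of 10 promoters held ACGTG (30%), with 1 gene missing from the table, against 24 of 50 promoters of the list's member genes (48%, with 4 genes missing) and 5444 of 32851 of all promoters (16.6%).

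Beyond metabolism, the large negative differences of Lrrc34 and Mgarp were falls after p400 knockdown. Lrrc34, a leucine-rich repeat protein of pluripotent cells (chromosome 3, 30436309 to 30436368, mm7), stood at -1.63, -1.39, -1.98 and -1.22 after p400 and at 0.05, -0.26 and -0.04 after Tip60 knockdown, a difference of -1.47 ± 0.14 (limma adjusted p = 0.00129). Mgarp, a mitochondrial protein, differed by -1.17 ± 0.13, with p400 arrays from -1.77 to -1.18 and Tip60 arrays from -0.31 to -0.24. Both kept their calls in all 32 settings tried for single genes.

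Other negative differences were rises after Tip60 knockdown in dim probes. Agrp, a neuropeptide of the hypothalamus, stood at 0.27, 0.36, 0.52 and 0.17 after p400 and at 1.66, 1.55 and 1.41 after Tip60 knockdown (-1.21 ± 0.13), from an EGFP level of -4.27. Gast, the precursor of gastrin, differed by -1.11 ± 0.12 (EGFP level -4.21). Both were robust to background, but with the deposited series matrix Agrp stood at -0.34 and was not called (adjusted p = 0.093), and Gast stood at -0.34 (adjusted p = 0.0477). Spesp1, a sperm protein (-1.49), Adipoq, the fat cell hormone adiponectin (-1.35), Pramel7, a PRAME family member of early embryos (-1.33), the olfactory receptor gene Olfr20 (-1.27), Anxa10, an annexin (-1.17), Pax1, a transcription factor of the skeleton (-1.12), Sardh, a mitochondrial dehydrogenase (-1.1), and Klhl35 (-1.09) were not robust, and all lay at EGFP levels of -3.38 or below. On the p400 arrays the EGFP channel was well above background on 1 of 4 for Pax1 and on 2 of 4 for Anxa10. With the deposited series matrix, Spesp1 stood at 0.05, Pramel7 at 0.0083, Olfr20 at 0.21 and Anxa10 at 0.02. With the deposited LogRatio, Adipoq stood at 0.35, Pax1 at 0.45 and Anxa10 at 0.445. Calls were lost for Klhl35 without p400 replicates 2 (-1.09), 3 (-1.1) or 4 (-1.1), for Sardh without 2 (-1.12) or 4 (-1.08), and for Anxa10 without 4 (-1.05).

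Of 655 genes called lower after Tip60 knockdown with no call for p400, the difference was called higher in 97. Asb9, a substrate adaptor of ubiquitin ligases, stood at -0.22, 0.08, 0.05 and 0.01 after p400 knockdown, and was not well above background on any of the 3 Tip60 arrays. With lower Tip60 values set to the lowest signal above background, it was 1.91-fold lower after Tip60 knockdown, and the difference was 0.91. That signal is no strict limit for a probe that failed the background test. The measured difference was 1.54 (limma adjusted p = 0.0108). On Tip60 replicate 3 Asb9 stood at 2.15, and with that array included the difference was 0.62 (adjusted p = 0.786) or, with a weight for each array, 1.27 (adjusted p = 0.298). Its call was also lost without p400 replicates 2 (1.53) or 4 (1.56). Of 29 targets of p53, a transcription factor activated by DNA damage, limma called 4 higher (13.8%, against 5.5% of all member genes) and none lower (9 and 1 at an unadjusted p under 0.05; median 0.11, from 0.05 to 0.17 above all member genes over the settings). Of these 29, 13 were called lower after Tip60 knockdown and 10 after p400, where 10.8% and 17.9% of all member genes were.

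**Figure D4:**
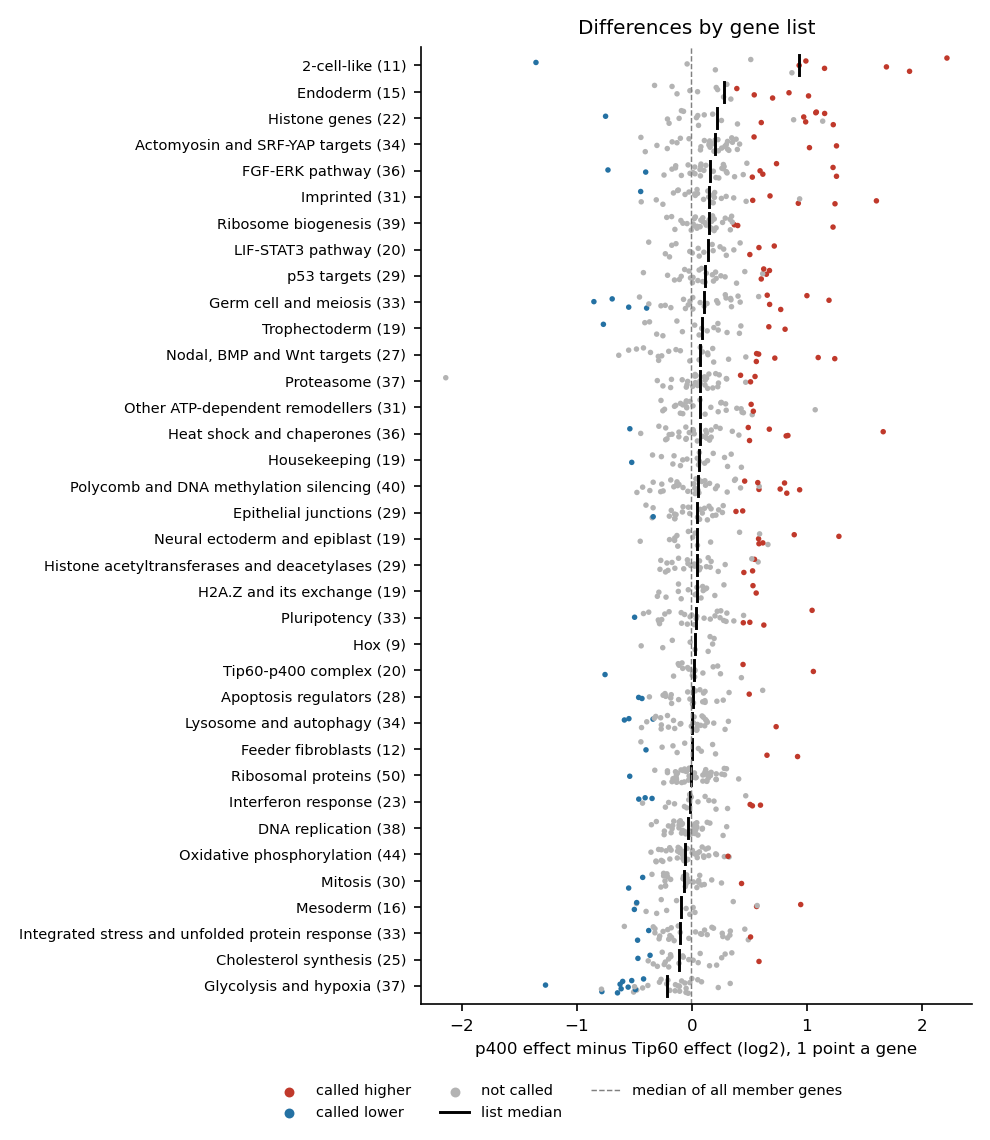
Each point is 1 member gene of a list, placed by its p400 effect minus its Tip60 effect (log2), red where called higher, blue where called lower and grey where not called; black bars are list medians and the dashed line is the median of all member genes (-0.0045). The 2-cell-like list (median 0.93) and glycolysis and hypoxia (median -0.22) lie at the ends, and most lists centre near the dashed line.

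In 58 genes (0.369% of member genes) the knockdowns had opposite calls. Of these, 42 were higher after p400 and lower after Tip60 knockdown, and 16 were lower after p400 and higher after Tip60. Of the 42 and 16, 41 and 15 were robust to background, which concerns the call of the difference alone. The count of genes with opposite calls was 45 with normexp in both experiments and 100 with the deposited LogRatio. Spaca4, a sperm surface protein (chromosome 7, 41901311 to 41901370, mm7), gave p400 ratios of 0.96, 0.67, 1.23 and 0.37 and Tip60 values of -0.74, -0.95 and -1.03. Every p400 array was above EGFP and every Tip60 array below it, with a difference of 1.71 ± 0.18 (limma adjusted p = 0.00154). Egr1 stood at 1.16, 0.85, 0.71 and 0.71 against -0.29, -0.57 and -0.34 (1.26 ± 0.13, limma adjusted p = 0.00153). Both held their calls in all 32 settings.

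The other leading genes of this direction had smaller effects. Grip1, a synaptic scaffold, stood at 0.35 and -0.64, Tspan7, a tetraspanin, at 0.42 and -0.44, Unc45b, a myosin chaperone, at 0.37 and -0.37, and Pdlim7, a LIM protein of the actin cytoskeleton, at 0.40 and -0.31. For 4 more the p400 arrays spread widely. Taf1, the largest subunit of TFIID, stood at 0.72, -0.08, 0.80 and 0.32 after p400 knockdown, and its other 5 probes differed by -0.07 to 0.32. Cited2, a co-regulator that limits hypoxia signalling, stood at 0.23, 0.14, 0.93 and 0.15, Gnai1, a G protein subunit, at 0.59, 0.02, 0.91 and 0.04, and 2010204K13Rik at 0.71, -0.09, 0.59 and 0.13. The high values of Taf1, Gnai1 and 2010204K13Rik were again those with p400 RNA in Cy5. The difference lost its call without p400 replicate 4 in Taf1 (0.79), 2010204K13Rik (0.68) and Gnai1 (0.71), and without replicate 2 in Gnai1 (0.71) and Cited2 (0.70).

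In the reverse direction, Rab39, a GTPase of vesicle traffic, stood at -0.55, -0.42, -0.30 and -0.10 after p400 and at 0.52, 0.82 and 0.67 after Tip60 knockdown, a difference of -1.01 ± 0.12 (limma adjusted p = 0.00243). Dnah2, an axonemal dynein, differed by -1.17 ± 0.17, Pygl, the liver glycogen phosphorylase, by -1.01 ± 0.18, Thrsp, a regulator of fat synthesis, by -0.88 ± 0.17 and Rgs11, a regulator of G protein signalling, by -0.81 ± 0.12. Entpd2, an enzyme that cleaves extracellular ATP, Slc16a9, a carrier of carboxylates, Vstm2l, Evc, a ciliary protein, and Slc5a11, an inositol transporter, differed by -0.77 to -0.59. Pygl, Thrsp and Entpd2 lost their calls without p400 replicate 2 (-1.0, -0.84 and -0.70), and Thrsp also without replicate 4 (-0.93). The number of opposite genes was 26 without p400 replicate 2, 27 without replicate 4, and 33 and 34 without Tip60 replicates 1 and 4.

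**Figure D5:**
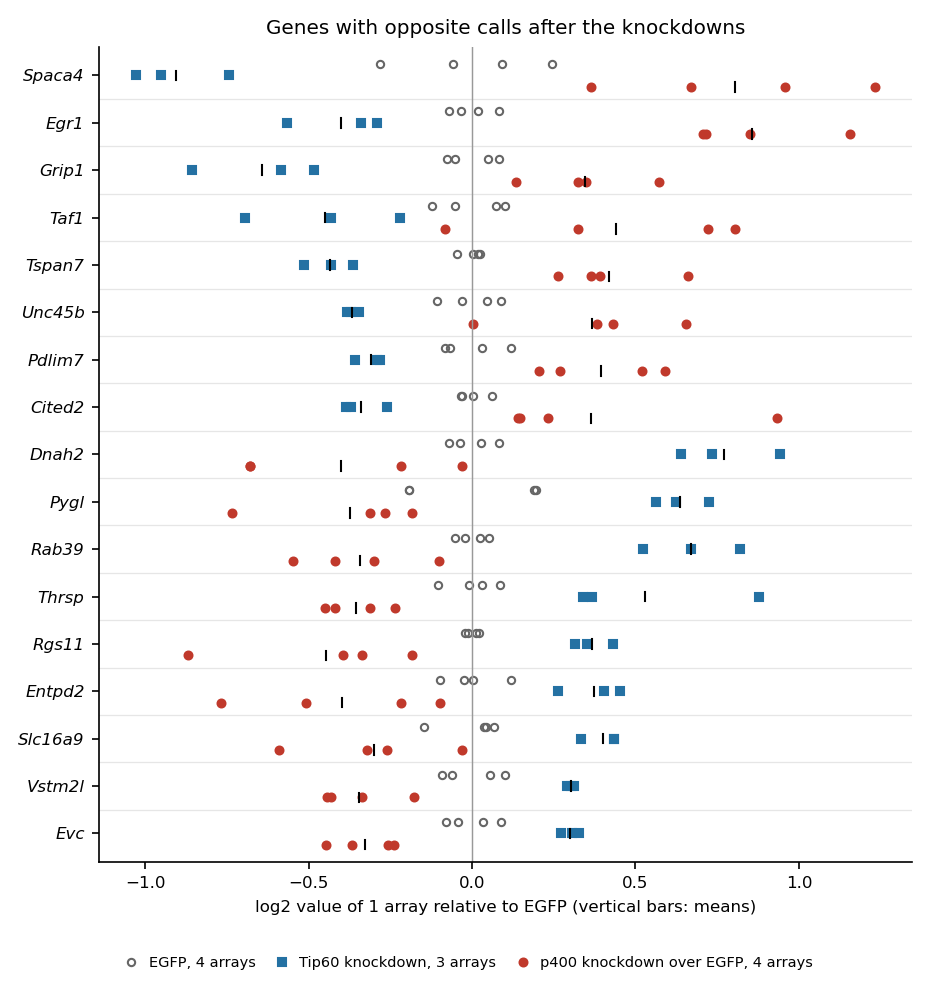
Array values relative to EGFP (log2) for 17 of the genes with opposite calls: open circles are EGFP, squares Tip60 and filled circles p400 arrays, with vertical bars at means. The first 8 genes have p400 means right of 0 and Tip60 values left of it (Spaca4 from 0.37 to 1.23 and from -1.03 to -0.74), and the last 9 the reverse.

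Some of the strongest responses did not separate the knockdowns. Guca1a, a regulator of guanylate cyclase in photoreceptors, rose by 2.99 after both (difference -0.00061, 95% confidence interval -0.31 to 0.31). Usp17lb, from a family of ubiquitin proteases with many copies, rose by 3.42 and 3.47 (-0.53 to 0.45), Ankrd22 by 3.47 and 3.40 (-0.62 to 0.76), and Prkch, a protein kinase C, by 2.38 and 2.23 (-0.50 to 0.80). Pcdh8, a protocadherin, rose by 2.44 and 2.47 (-0.84 to 0.80), but its probe is dim, and with the deposited LogRatio its difference was 1.95. Among shared falls, Srcin1, a regulator of Src kinase, stood at -0.63 and -0.64 (-0.19 to 0.21), Etnk1, an ethanolamine kinase, at -0.59 and -0.57 (-0.25 to 0.22), Ptprv, a phosphatase, at -0.61 for both (-0.31 to 0.31), Phlda2, an imprinted growth regulator, at -0.73 and -0.75 (-0.32 to 0.37), and Neurod1, a neuronal transcription factor, at -0.85 and -0.86 (-0.74 to 0.76). These genes were picked for a difference near 0, and the intervals cover the spread between arrays alone. Processing moved some of them further. Prkch was called at 1.13 with the deposited LogRatio, 0.96 with normexp in both experiments and 1.36 with the series matrix, and Ankrd22 at 1.22 with LogRatio and 1.1 with the series matrix. With Tip60 replicate 3 included Neurod1 stood at -1.71, and with both effects brought to the same spread Guca1a stood at -0.50 and Usp17lb at -0.62, none of them called.

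Of the 20 measured genes of the Tip60-p400 complex, 3 differed: Ep400, Kat5 and Trrap, the scaffold that the complex shares with other acetyltransferases. Trrap stood at 0.60, 0.70, 0.62 and 0.41 after p400 and at 0.07, 0.18 and 0.16 after Tip60 knockdown. The arrays did not overlap, but the call (0.44 ± 0.11, limma adjusted p = 0.0388) was lost when any 1 of 10 arrays was left out, and held only without EGFP replicate 4. The other 17 were not called, with differences from -0.16 for Brd8, a bromodomain subunit, to 0.43 for Actb, the nuclear actin of the complex. The ATPases Ruvbl1 and Ruvbl2 stood at 0.22 and -0.11.

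Few genes of DNA replication, ribosomes, respiration and mitosis were called in the difference. Of 38 DNA replication genes none was called in either direction by limma (2 higher and 3 lower at an unadjusted p under 0.05). Of 50 ribosomal protein genes 1 was lower (2%, against 3.85% of all member genes). Of 44 oxidative phosphorylation genes 1 was higher (2.27%, against 5.5%). Of 30 mitosis genes 1 was higher (3.33%, against 5.5%) and 2 lower (6.67%, against 3.85%). At an unadjusted p under 0.05 the mitosis counts were 2 higher and 7 lower. Medians of these 4 lists ran from -0.06 to -0.0056. Relative to all member genes, the mitosis and DNA replication medians were negative in all 34 settings (-0.19 to -0.02 and -0.16 to -0.0023). After p400 knockdown 10 mitosis genes were called lower and 3 higher, and 11 DNA replication genes lower and 4 higher. None of either list was called lower after Tip60 knockdown. Of all member genes, 17.9% and 10.8% were called lower after p400 and Tip60 knockdown. Of 39 ribosome biogenesis genes, limma called 3 higher (7.69%, against 5.5% of all member genes) and none lower (9 and 1 at an unadjusted p under 0.05). The median was 0.15, from 0.03 to 0.19 above that of all member genes over the settings. After p400 knockdown 10 were called higher and after Tip60 none, where 20.9% and 14% of all member genes were. With the p400 arrays centred on their median without loess, 22 DNA replication and 21 mitosis genes were called lower.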

How the data were processed

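RNA levels were read on Agilent mouse arrays (design 014868). Per the file headers, Feature Extraction 9.5.1.1 gave each spot's mean and background intensity, a background-subtracted processed intensity and, on two-colour arrays, LogRatio, the log10 ratio of red over green. Values in the deposited series matrix are log2, and their processing is not given in the sources used here. Probe positions are on mm7 per the file headers.

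The p400 arrays were corrected with normexp (offset 50) and normalised by loess within each array, with control spots at weight 0. Single-colour values are log2 processed signal minus the array's 75th percentile. The 1639 control spots and outlier spots per array were left out, and spots of a probe were averaged. Probes were named by accession (22951), symbol (6659) or synonym (3109) in a reference gene table, or kept the name in the file (8455). One limma model (limma 3.58.1, R 4.3.3) was fitted to 11 arrays, with p400 effect, dye, EGFP level and Tip60 effect, and a weight for each array format (0.576 for two-colour, 1.37 for single-colour arrays). It covered 25187 probes: the members and 1774 others that passed the scanner's background test on 3 or more arrays of 1 RNA in each experiment. The difference of the effects was tested two-sided with Benjamini-Hochberg adjustment over all probes in the fit. Of the member probes, 196 miss a value on some array, 50 were saturated on an array, 26 were not well above background in p400 RNA on any array and 2 in Tip60 RNA. Of 5563 genes with several member probes, 1 had probes called in opposite directions.

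On simulated data (24981 probes, 200 changed) the test of p400 minus Tip60 recovered 38.8% of probes changed 1.5-fold, 80.6% at 2-fold and 100% at 4-fold, and 2.01% of calls were false. With Welch-Satterthwaite degrees of freedom 12.4% were false. In the simulation all other probes had equal effects, noise was independent between probes and arrays, and array format, slide and normalisation added no shift. The share of false calls in the measured contrast was therefore not tested.

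The members, the 36 gene lists and the tests were chosen with earlier results of these data known. Named genes are the complex and 5 pluripotency genes, the 15 largest differences each way without overlap between arrays, the 10 largest opposite calls each way, up to 3 called genes each way per list, and the 5 largest shared effects each way with a difference near 0; some list genes are left out for length, and 1 is not reported here. Alternatives changed normalisation, background, filters, arrays, slide, weights and test. Promoters are from RefSeq (GRCm38.p6). The number of arrays limits the precision.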

Additional observations from a re-analysis of the deposited data

Results flagged for a closer look

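In 7 of 178 groups of 4 arrays (3.93%), each holding the p400 ratios or the EGFP levels of 1 named gene, 1 array stood apart from the other 3 by Dixon's 95% criterion, which chance meets in about 1 in 20 groups. On the p400 arrays, replicate 3 was high for Cited2 (0.93 against 0.14 to 0.23), and replicate 4 was low for Usp17lc (1.13 against 2.44 to 2.61). Among EGFP levels, replicate 4 was low for H2bc21 (-3.70), Olfr20 (-5.03), Slc16a9 (-3.18) and Trp53 (1.62 against 2.02 to 2.08), and replicate 3 was high for Spesp1 (-4.32 against -4.72 to -4.66). Trp53, which encodes p53, stood at a difference of 0.67 in the contrast, and its second probe at -0.0016. Its call (limma adjusted p = 0.0385) was lost when any of 9 of the 11 arrays was left out (0.59 to 0.73).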

How the results depend on the processing

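Over 32 settings that give single genes, 28 of the 146 named genes called in the difference kept their call in every one, among them Egr1, Spaca4, Igf2, Cdkn1c, Stra8, Tex19.1, Cbx1, Phc1, Krt18, Pou3f1, Nefl, Ldhb, Lrrc34, Mgarp, Smc1b, Dnah2, Rab39 and Ep400, and 40 of all 178 named genes had the opposite sign in some setting. In 12 of these the difference was called as reported or in the setting that turned it. The count of member probes called (1977) was 4098 with the deposited LogRatio, 5861 with the p400 arrays centred on their median, 676 with them scaled to a common spread, 4000 with the median in place of the 75th percentile and 3123 with the series matrix. It was 376 with slide 2 alone, 772 with the smaller degrees of freedom of separate fits, 570 with all probes tested and 1202 among members brighter than the median EGFP level, a setting chosen after seeing the data. The count of opposite genes (58) in the same order, leaving out the series matrix, was 100, 105, 35, 247, 12, 38, 14 and 37, and it was 95 with Tip60 replicate 3 included at a weight per array. Leaving out 1 array gave 627 to 2340 probes and 26 to 78 opposite genes, a median absolute difference of 0.165 to 0.185 and a correlation of 0.690 to 0.740. The median absolute difference moved to 0.223 with LogRatio, 0.248 with median centring and 0.231 with the median in place of the 75th percentile. The cause of these moves was not tested.

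Among those 12, the sign was opposite with LogRatio for Adipoq (0.35), Anxa10 (0.445), Kdr (0.0832), Pax1 (0.45), Pcdh8 (1.95) and Plac1 (0.24), and with median centring for Mbtd1 (-0.28) and Ndufa10 (-0.0013). It did so with the series matrix for Anxa10 (0.0158), Kdr (0.0275), Olfr20 (0.21), Pcdh8 (1.505), Plac1 (0.0158), Pramel7 (0.0083), Spesp1 (0.045) and Usp17lc (0.28). With normexp in both experiments and quantile normalisation, chosen after seeing the data, it did so for Kdr (0.0452) and Olfr20 (0.0081).

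Replicate numbers are shared between Tip60 and EGFP arrays, but same-numbered arrays did not deviate together (r of -0.218, -0.367 and -0.042 for numbers 1, 2 and 4), so the numbers were not taken as pairs. With the replicate number as a block, 636 probes and 17 opposite genes were called.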

Other observations

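Further lists had members that separated the knockdowns. In the interferon response list, 3 of 23 genes were called higher and 3 lower after p400 than after Tip60 knockdown. This was 13% each way, against 5.5% and 3.85% of all member genes. The oligoadenylate synthetase genes Oas1a (0.59 after p400, 1.05 after Tip60, difference -0.46) and Oasl1 (0.07 and 0.48, difference -0.41) were lower, and Gbp2, a guanylate-binding GTPase, was among the genes with opposite calls (0.30 and -0.22). Oas1a and Oasl1 lost their calls without p400 replicates 2 (-0.47 and -0.38) or 4 (-0.45 and -0.43), and Gbp2 without p400 replicate 4 (0.45). Ccn2, a matrix-associated target of YAP, stood at 1.33 after p400 and 0.31 after Tip60 knockdown (difference 1.02), Snai2, a repressor of epithelial genes, at 1.14 and 0.19 (0.95), and Col1a1, a fibrillar collagen and feeder marker, at 0.80 and -0.11 (0.92). The feeder list as a whole had 2 of 12 genes called higher (16.7%, against 5.5% of all member genes) and 1 lower (8.33%, against 3.85%). Its median was -0.0028. Ccn2, Snai2 and Col1a1 kept their calls when any single array was left out.

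The proteasome subunit genes Psmd3 (0.60 and 0.05, difference 0.55) and Psmb9 (0.70 and 0.19, difference 0.51) were higher, with 3 of 37 proteasome genes called higher (8.11%, near the 5.5% of all member genes) and none lower by limma (6 and 1 at an unadjusted p under 0.05). Psmd13 had the lowest difference of the list (-2.14 ± 1.26, SE) and was not called. Neu1, a lysosomal sialidase, fell further after p400 (-0.83 against -0.24). Psmd3, Psmb9 and Neu1 kept their calls when any single array was left out. They lost them with the p400 arrays scaled to a common spread (limma adjusted p = 0.05996, 0.082 and 0.1045). Asns, asparagine synthetase, a target of the amino acid response, was lower (-0.40 and 0.07), as was Msmo1, of cholesterol synthesis (-0.52 and -0.06), and Socs1, a feedback inhibitor of cytokine signalling, was higher (1.19 and 0.48). Asns and Msmo1 lost their calls without p400 replicates 2 (-0.48 for both) or 4 (-0.46 for both), and Socs1 without p400 replicate 2 (0.62).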
